A study of Drosophila melanogaster with 3 samples.

Results

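The genes described here are the 5 GATA factor genes of Drosophila melanogaster named srp (serpent), GATAe, pnr (pannier), grn (grain) and GATAd, and the values are peaks of chromatin immunoprecipitation followed by sequencing (ChIP-seq) for the Pax protein gooseberry-neuro (Gsb-n). A peak was assigned to one of these genes when its summit, the position of highest signal, lay inside the gene or when the nearest transcription start site (TSS) of any protein-coding gene was one of its own. By this rule the 5 genes held 9 of the 5746 peaks (0.157%) of the IDR list, which the authors filtered on the irreproducible discovery rate, a measure of how stable a peak's rank is from replicate to replicate. They held 41 of the 30000 pooled peaks (0.137%) and 50, 39 and 45 of the 30000 peaks called in replicates 1, 2 and 3, a mean of 44.7 ± 5.51 (SD, n = 3).

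The material was whole embryos, 4 to 14 hours old, of 1 transgenic line that stably carries gsb-n with green fluorescent protein fused to its C-terminal end, and chromatin bound by the fusion was precipitated with an antibody against the fluorescent protein after sonication to 200 to 800 bp. The age comes from the source description, since a separate age tag in the labels holds a number of hours that cannot be an embryo age. The 3 samples are biological replicates of this 1 group, sex was not recorded, and no untagged or input sample was analysed here, so there is no background measured the same way and no comparison between conditions. Whole embryos mix all tissues, so a peak does not tell in which cells the protein was bound, and assignment by distance does not measure the expression of a gene. The IDR peaks are the highest 5746 of the pooled list, so these lists are not independent, and the height of a peak ("signal") is on the authors' scale, which differs between lists. Replicates are therefore compared by rank, with rank 1 the highest of the 30000 peaks in a list, and a peak is counted in a replicate when a summit lies within 100 bp.

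GATA factors are zinc finger proteins that recognise a GATA core in DNA, and in flies they specify several tissues of the embryo. Serpent is required for blood cells, fat body and endoderm, GATAe acts after it in the endoderm and midgut, pannier patterns the dorsal ectoderm and the heart, and grain is needed in the posterior spiracles and in certain neurons, while the role of GATAd is less well described. Gsb-n, the precipitated protein, carries a paired domain and a homeodomain and is known mainly from the segmented nerve cord.

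All 5 genes had at least 1 IDR peak, against 23.9% of the 13945 protein-coding genes and 32.8% of the genes whose territory, the stretch of genome closest to their own TSSs, was at least as long as the shortest among the 5. That shortest territory was the 4.08 kb of GATAd. The others ran from 15.1 to 39.1 kb, so the 32.8% is not matched to their length. The gene grn had 4 IDR peaks, srp had 2, and GATAe, pnr and GATAd had 1 each. Having 2 or more was found in 9.09% of all genes and having 4 or more in 3.09%. The positions of the 9 summits differed by gene. None lay inside srp, GATAe or pnr, whose 4 IDR peaks were all upstream of the first TSS, whereas 3 of the 4 grn summits and the GATAd summit lay in introns.

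The sequences under 7 of the 9 IDR summits are shown because they hold the matches to GATA sites and the strings of the promoter peaks described further on, or, for GATAe, because the gene's only IDR summit lies there. They come from the RefSeq copy of genome release 6 (dm6), are written 5′ to 3′ on the + strand, and span 100 bp to either side of the summit, except that the pnr window ends before its first exon. Capitals mark GATA sites (AGATAA and its variant TGATAA, or the forms with a final G, AGATAG and its variant TGATAG, on either strand) and the strings GTCACG and GAGAG.
srp distal (chr3R:15983674-15983874): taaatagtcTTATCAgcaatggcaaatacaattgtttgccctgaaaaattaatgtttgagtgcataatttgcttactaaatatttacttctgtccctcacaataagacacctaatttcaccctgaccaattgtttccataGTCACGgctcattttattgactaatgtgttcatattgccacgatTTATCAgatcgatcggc
srp proximal (chr3R:15984522-15984722): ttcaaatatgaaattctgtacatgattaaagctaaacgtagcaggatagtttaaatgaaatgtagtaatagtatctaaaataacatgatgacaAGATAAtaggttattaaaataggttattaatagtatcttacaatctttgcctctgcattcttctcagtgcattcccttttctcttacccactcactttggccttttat
GATAe upstream (chr3R:16006059-16006259): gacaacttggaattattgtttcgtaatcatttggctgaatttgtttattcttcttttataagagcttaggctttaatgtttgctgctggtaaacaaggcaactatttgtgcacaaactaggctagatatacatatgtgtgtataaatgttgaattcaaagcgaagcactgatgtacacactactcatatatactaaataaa
pnr promoter (chr3R:16025915-16026078): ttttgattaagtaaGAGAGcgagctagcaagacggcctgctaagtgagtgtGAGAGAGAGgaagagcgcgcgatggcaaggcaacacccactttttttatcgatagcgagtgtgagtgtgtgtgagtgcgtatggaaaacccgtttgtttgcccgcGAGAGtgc
grn promoter (chr3R:8181509-8181709): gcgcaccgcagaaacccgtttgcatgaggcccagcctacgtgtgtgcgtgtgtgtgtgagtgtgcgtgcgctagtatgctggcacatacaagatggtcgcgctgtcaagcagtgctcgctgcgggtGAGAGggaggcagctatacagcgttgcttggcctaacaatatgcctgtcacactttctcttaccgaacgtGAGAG
grn first intron (chr3R:8180519-8180719): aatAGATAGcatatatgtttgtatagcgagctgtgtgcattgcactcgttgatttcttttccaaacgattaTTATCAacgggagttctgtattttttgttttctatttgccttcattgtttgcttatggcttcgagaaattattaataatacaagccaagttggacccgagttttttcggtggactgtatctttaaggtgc
GATAd intron (chr2L:10335081-10335281): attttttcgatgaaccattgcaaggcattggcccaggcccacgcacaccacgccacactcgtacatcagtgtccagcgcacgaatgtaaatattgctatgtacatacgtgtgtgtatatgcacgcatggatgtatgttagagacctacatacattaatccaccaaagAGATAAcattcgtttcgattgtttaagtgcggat

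The gene srp (FBgn0003507, chr3R:15986152-16004085, + strand, 4 TSSs) had the highest peak of the family. Its summit lay 2378 bp upstream of the first TSS, in intergenic sequence 323 bp past the end of the neighbouring gene Hel89B, and its signal was 481.3, rank 928 of the pooled list. In replicates 1, 2 and 3 it ranked 1334, 802 and 1233, a mean of 1123 ± 283 (SD, n = 3). No other of the 9 peaks ranked higher than this one in any replicate. Its interval, chr3R:15983657-15983783, was 127 bp wide, a width that only 177 of the 5746 IDR peaks matched or fell under, against 416 bp for 3986 of them, and the summit was 9 bp from its end. A further pooled peak began within that interval, with its summit 200 bp closer to the gene and a signal of 110.1. That summit ranked 4227 in replicate 2 and 9816 in replicate 3 and had no counterpart within 100 bp in replicate 1, so the division of this site into separate peaks differed between replicates.

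The second srp IDR peak had its summit 1530 bp upstream, 848 bp from the first, with a signal of 196.2. It ranked 3088, 5067 and 4142, a mean of 4099 ± 990 (SD, n = 3). In each replicate it ranked below the distal srp peak. Of the 7 pooled peaks of srp, 3 lay inside the gene, all in introns, and the highest of these, 1131 bp past the first TSS, had a signal of 89.86 and ranked 15372, 16313 and 10815. The other pair of intronic peaks, at 41.24 and 39.73, had no summit within 100 bp in any replicate. The weaker one lay 2493 bp past the first TSS, and replicate 2 had a summit just beyond the limit, at 2392 bp (rank 26293). Every srp peak among the highest 5746 of a replicate list lay upstream of the gene.

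GATAe (FBgn0038391, chr3R:16009105-16019133, + strand, 2 TSSs) starts 5020 bp after the end of srp. Its IDR summit lay 2946 bp upstream of its first TSS, in an intron of the non-coding gene lncRNA:CR42839, with a signal of 247.1. It ranked 3067, 2535 and 4135 in the replicates, a mean of 3246 ± 815 (SD, n = 3). The TSS of lncRNA:CR42839 is closer, at 1914 bp, so this peak belongs to GATAe only as long as protein-coding genes alone are considered. A neighbouring peak, 3894 bp upstream and in an exon of the same non-coding gene, had a signal of 155.2, just under the weakest IDR peak of the whole list at 158.2. That neighbour ranked 11267 in replicate 1, 5173 in replicate 2 and 3967 in replicate 3. In replicate 3 it was the highest GATAe peak, whereas in replicates 1 and 2 the IDR peak was higher.

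Inside GATAe there were 6 pooled peaks, more than in srp or pnr, but none was among the IDR peaks. The highest, 1522 bp past the second TSS, had a signal of 122.0 and was found within 100 bp in replicate 2 alone, at rank 6239. Just beyond that limit, replicate 1 had a summit 1640 bp past the same TSS, at rank 12052. The intronic peak 827 bp past the first TSS was found in all 3 replicates, at ranks 22181, 18854 and 27662, low in each list. Of the 10 pooled peaks of GATAe, 3 had a summit in all 3 replicates.

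The gene pnr (FBgn0003117, chr3R:16026079-16041796, + strand, 3 TSSs) starts 6946 bp after GATAe ends, so that the 3 genes lie in the same orientation within 55.65 kb. Its IDR summit was the closest to a TSS of the 9, at 64 bp upstream, with a signal of 217.7. It ranked 5641, 4278 and 2736, a mean of 4218 ± 1453 (SD, n = 3), lowest in replicate 1 and highest in replicate 3. The remaining 3 pooled peaks were weak. They lay in an intron (signal 92.81, in replicate 1 alone), upstream (66.97, in replicates 1 and 2) and in an exon (66.77, in replicates 2 and 3). Only the promoter peak was found in all 3 replicates.

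**Figure D1:**
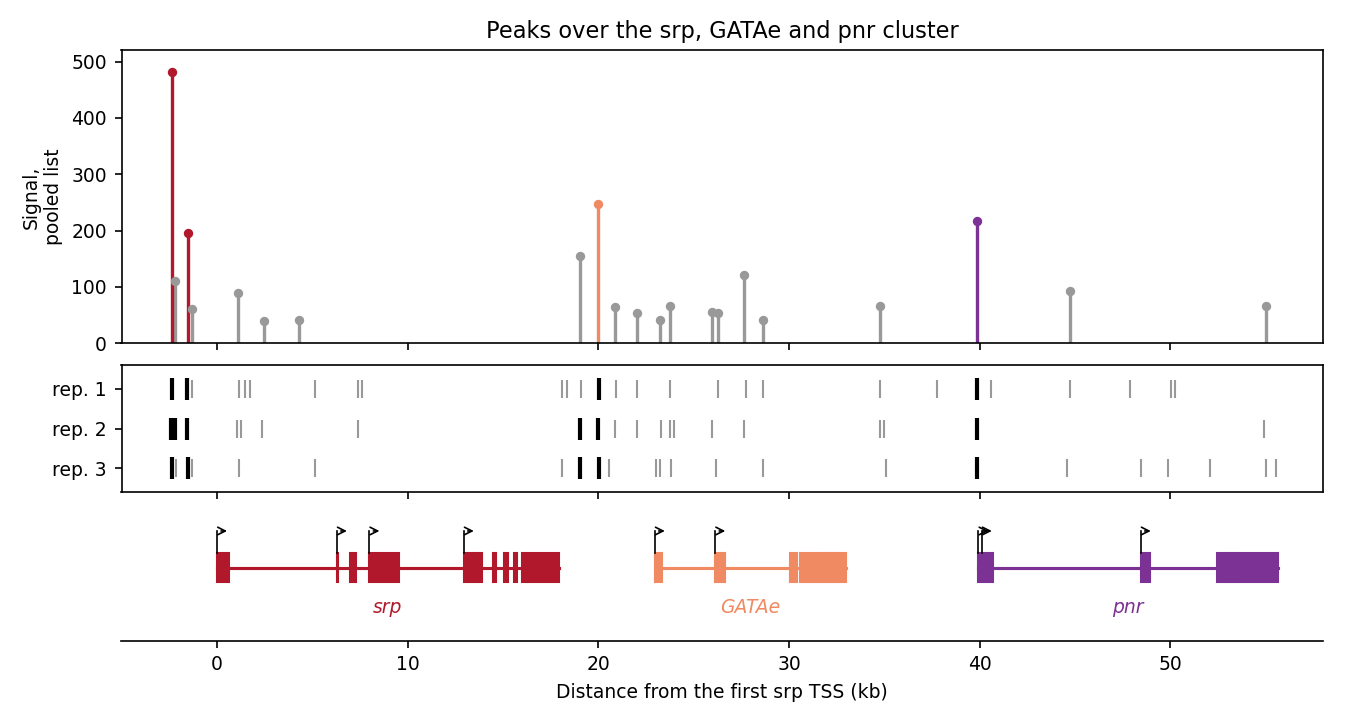
Peaks along srp, GATAe and pnr. The x axis is the distance from the first srp TSS in kb, stems give the signal of pooled peaks (colour for IDR peaks, grey for the others), ticks give summits in each replicate (thick black for the highest 5746 of the list), and boxes and arrows give exons and TSSs. The 4 IDR peaks, at 481.3 and 196.2 for srp, 247.1 for GATAe and 217.7 for pnr, lie upstream of the 3 genes, and those inside the genes are grey.

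The gene grn (FBgn0001138, chr3R:8147368-8181444, - strand, 1 TSS) lies elsewhere on the same arm and is the longest of the 5, at 34.1 kb. Its 4 IDR peaks spread over 25728 bp. The highest, 9757 bp into the gene, had a signal of 264.7 and ranked 2225, 2626 and 3895, a mean of 2915 ± 872 (SD, n = 3). The promoter peak, 165 bp upstream of the TSS, had a signal of 227.6 and ranked 2251, 7569 and 3391. It was near the top of the grn peaks in replicates 1 and 3 and fell outside the highest 5746 peaks in replicate 2, which gave it the widest spread of the 9 (mean 4404 ± 2800, SD, n = 3).

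The 990 bp between that summit and the first intronic one, 825 bp into the gene, separated peaks of nearly the same signal. The intronic peak had a signal of 230.5 and ranked 3559, 2650 and 6040, so it was high in replicate 2, where the promoter peak was low, and outside the highest 5746 in replicate 3. The most distal IDR peak, 25563 bp into the gene, had a signal of 202.2 and ranked 3466, 4843 and 6345, again outside the highest 5746 in replicate 3. Replicate 3 also held among its highest 5746 peaks 2 summits that were not IDR peaks, at pooled positions 27278 bp (signal 146.6, rank 5256 in that replicate) and 19761 bp (130.9, rank 5180) into the gene. The peak 9757 bp into the gene was the only grn peak among the highest 5746 in all 3 replicates.

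In the pooled list grn had 18 peaks, a number that 3.00% of all genes reached, and 14 of them lay inside the gene. A summit in all 3 replicates was found for 6 of the 18. By replicate grn had 20, 18 and 20 peaks. Its territory, 39.1 kb, was longer than or equal to that of 96.4% of protein-coding genes.

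GATAd (FBgn0032223, chr2L:10333734-10339185, + strand, 2 TSSs) is the shortest of the 5, with a territory of 4.08 kb against a median of 4.33 kb over all protein-coding genes. Its single IDR summit, 1267 bp past the closer TSS in the first intron, had a signal of 284.7, second only to the distal srp peak in the family. It ranked 1753, 3907 and 3107, a mean of 2922 ± 1089 (SD, n = 3). The summits in replicates 1 and 3 lay 93 and 82 bp upstream of the IDR summit and that of replicate 2 only 5 bp from it. The only other pooled peak of GATAd, 86 bp upstream of the first TSS, had a signal of 114.1 and was found in replicate 1 alone, at rank 8118.

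**Figure D2:**
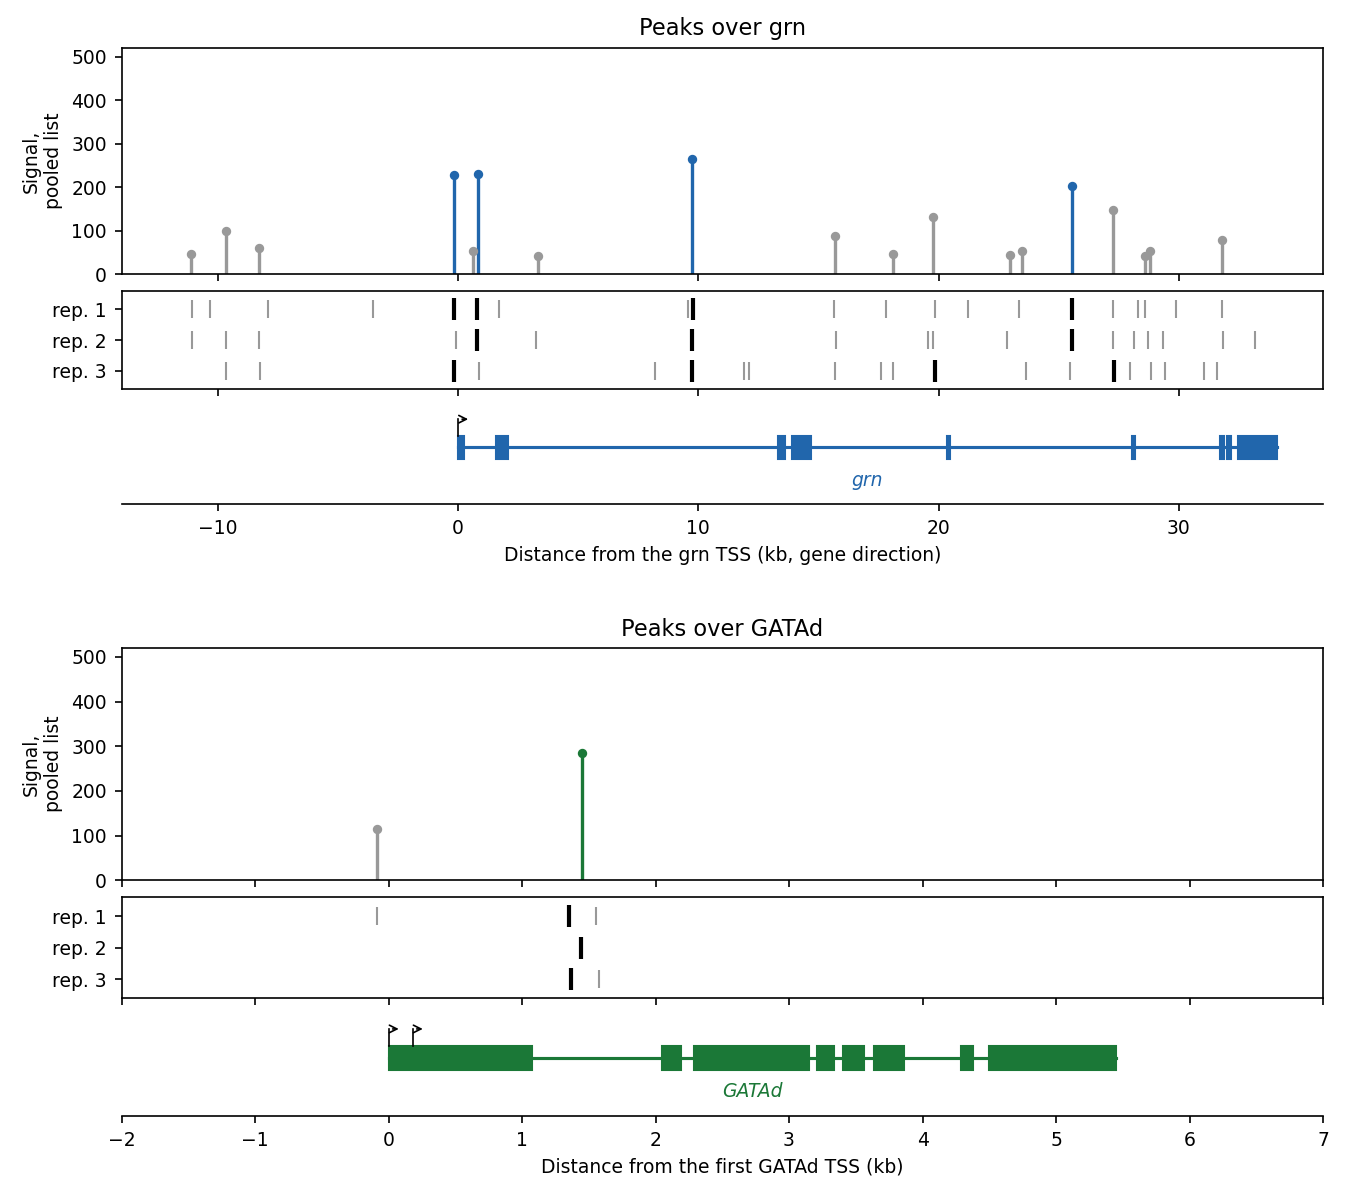
Peaks along grn (top) and GATAd (bottom). The x axes give the distance from the first TSS in kb in the direction of the gene, with stems, ticks, boxes and arrows as for the map of the 3 neighbouring genes. The 4 grn IDR peaks range from 202.2 to 264.7 and run from the promoter to 25563 bp into the gene, and the GATAd peak at 284.7 stands alone in its intron.

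Each of the 9 IDR peaks was found in every replicate at a distance of at most 100 bp (Wilson 95% interval for counting error 70.1 to 100%), against 89.4% of all IDR peaks. Summits moved by a median of 18 bp (0 to 95 bp) between the IDR peak and its 27 replicate counterparts, against a median of 16 bp over all IDR peaks. Of the 9, 6 were among the highest 5746 in every replicate (66.7%, Wilson 95% interval 35.4 to 87.9%), against 56.8% of all IDR peaks. The 3 that were not, all of grn, were among the highest 5746 in 2 replicates each. Every one of the 5 genes had a peak among the highest 5746 of each replicate, which 18.1% of all genes had. The IDR peaks come from a list pooled over the same replicates, so for genes with an IDR peak this is not separate evidence.

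**Figure D3:**
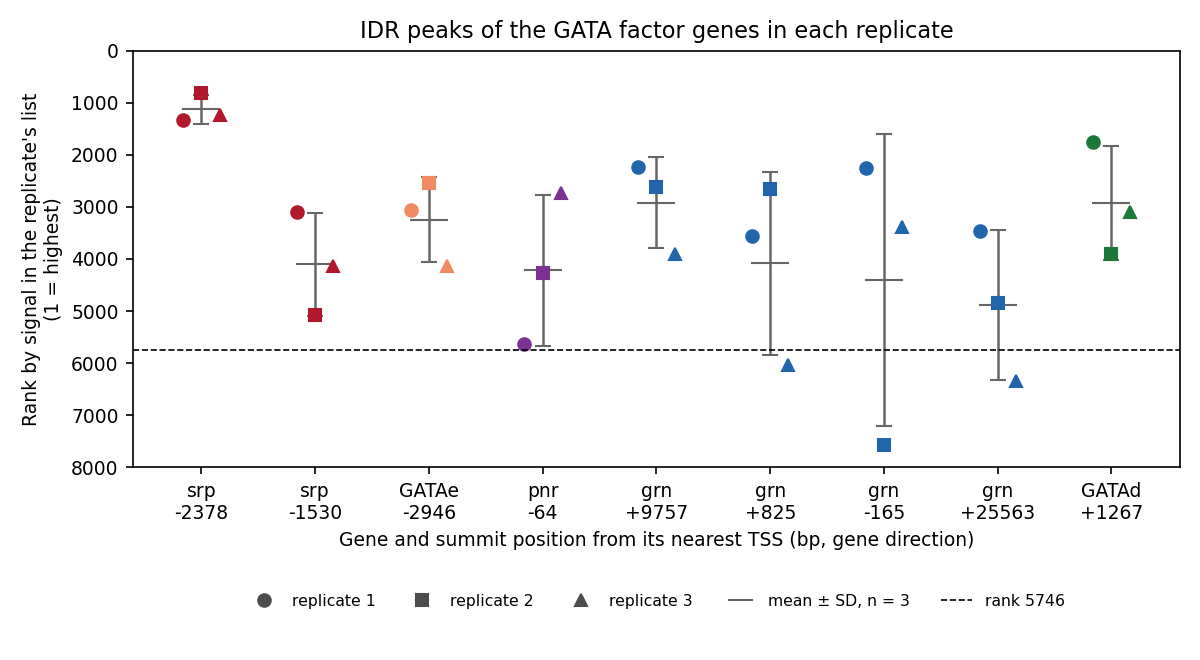
Rank of each IDR peak of the 5 genes in each replicate. The y axis is the rank by signal (1 at the top), the x axis names the gene and the summit position from its nearest TSS in bp, symbols are replicates, bars are mean ± SD (n = 3) and the dashed line is rank 5746. The distal srp peak lies at 802 to 1334 in the 3 replicates, and only grn peaks fall below the line, 1 replicate each.

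By the highest peak of each gene, mean ranks over the replicates were 1123 ± 283 for srp, 2747 ± 592 for grn, 2922 ± 1089 for GATAd, 3190 ± 724 for GATAe and 4218 ± 1453 for pnr (SD, n = 3). Of the 10 pairs of genes, 4 kept 1 order in all 3 replicates, and those were srp above each of the others. For these 4 pairs the exact two-sided sign-flip permutation test on log2 rank gave p = 0.25, the smallest that 3 replicates allow, so no order passes a threshold in this design. The ranks of grn, GATAd, GATAe and pnr overlapped between replicates and cannot be ordered.

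Among the highest 5746 peaks of each replicate the 5 genes held 9, 10 and 10, a mean of 9.67 ± 0.577 (SD, n = 3). All 9 of replicate 1 matched an IDR peak, against 8 of 10 in replicate 2 and 7 of 10 in replicate 3. The unmatched summits belonged to srp and GATAe in replicate 2 and to GATAe and grn in replicate 3. Over the full lists srp had 9, 7 and 6 peaks, GATAe 10, 9 and 9, pnr 8, 4 and 8, and GATAd 3, 1 and 2. In every replicate grn had the most peaks, GATAe came next and GATAd had the fewest, while the counts of srp and pnr overlapped.

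**Figure D4:**
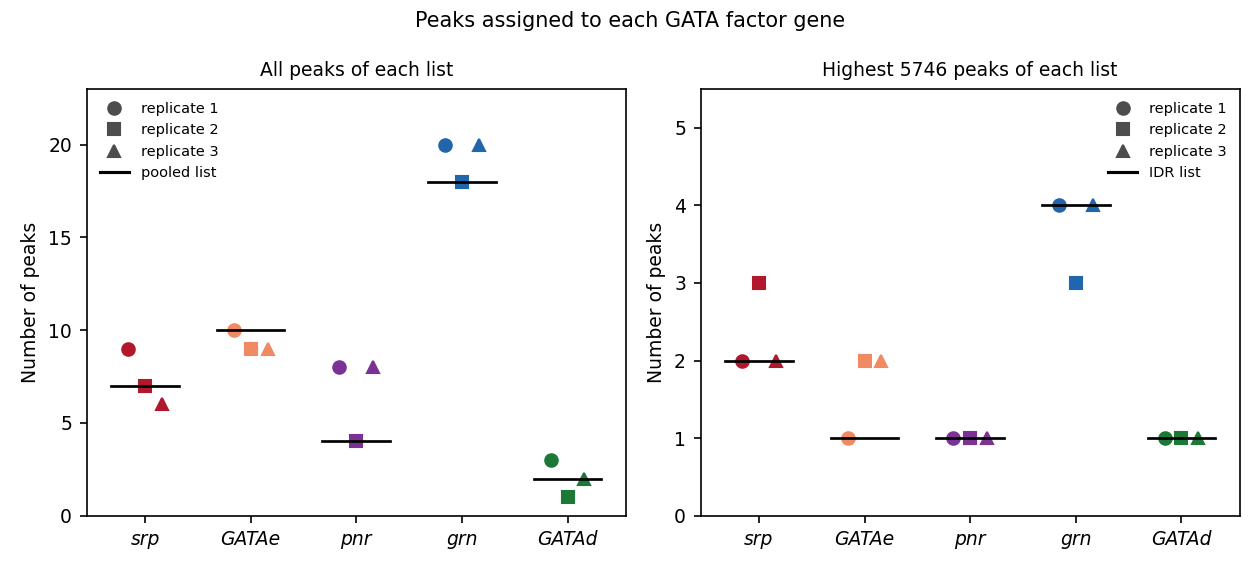
Number of peaks assigned to each gene. The y axes count all peaks of a list (left) and the highest 5746 (right), symbols are replicates and horizontal lines are the pooled (left) and IDR (right) lists. On the left grn lies highest, at 18 to 20 in the replicates, and GATAd lowest, at 1 to 3.

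The signal of the 9 IDR peaks had a median of 230.5 (196.2 to 481.3), and 3 of 9 were above the median of all IDR peaks, 250.3 (158.2 to 3712). These 3 were the distal srp peak, the GATAd peak and the highest grn peak. By position 2 of 9 lay within 500 bp of a TSS (22.2%, Wilson 95% interval 6.32 to 54.7%), against 35.3% of all IDR peaks, 4 lay in introns (44.4% against 38.4%) and 3 between genes (33.3% against 24.9%). These classes use protein-coding genes alone, so the GATAe peak in the intron of lncRNA:CR42839 counts as between genes. An IDR peak within 500 bp of a TSS was found in 2 of the 5 genes, pnr and grn, against 13.7% of all protein-coding genes. With 9 peaks the intervals include the shares of the whole list.

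All 5 genes also had a peak in the pooled list, as did 47.6% of all genes. Of their 41 pooled peaks, 21 were intronic (51.2%, against 45.0% of all pooled peaks), 12 intergenic (29.3% against 30.4%), 6 within 500 bp of a TSS (14.6% against 21.1%) and 2 exonic (4.88% against 3.60%). The Wilson 95% interval of the promoter share, 6.88 to 28.4%, includes the share of the whole list. A summit in all 3 replicates was found for 14 of 41 (34.1%), against 34.8% of all pooled peaks. Of the 32 that were not IDR peaks, 5 were found in all 3 replicates (15.6% against 21.9%), and 4 had no summit within 100 bp in any. In 4 cases a pooled peak inside one of these genes was closer to the TSS of another, 3 of them in grn (closest to Arl8) and 1 in pnr (closest to Jhbp4).

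The territories of the 5 genes add up to 100.9 kb and held 8.92 IDR peaks per 100 kb (exact Poisson 95% interval for counting error 4.08 to 16.9), against 4.29 over the chromosome arms as a whole. By gene the values were 24.5 per 100 kb for GATAd, 10.2 for grn, 8.80 for srp, 6.63 for GATAe and 5.03 for pnr, the first of these resting on 1 peak in a short territory. The share of genes with a territory no longer than theirs was 90.6% for srp, 88.8% for pnr, 83.9% for GATAe and 47.8% for GATAd. Genes with more room around them can collect more peaks under the nearest-TSS rule, and the part of this in the counts was not tested.

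**Figure D5:**
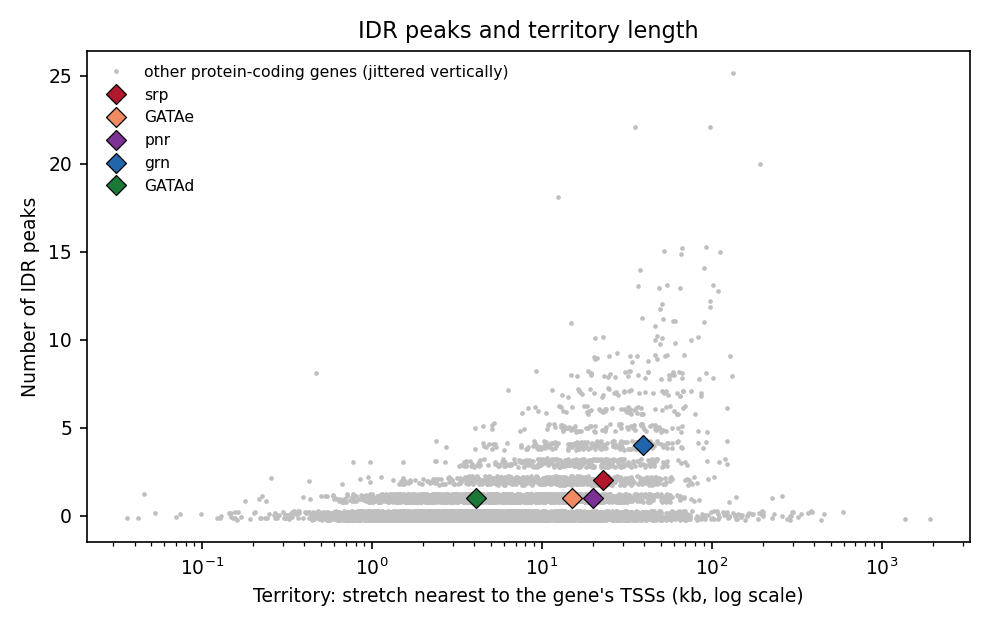
IDR peaks per gene against territory length. Each grey point is a protein-coding gene, the x axis is the territory in kb on a log scale, the y axis is the number of IDR peaks (grey points are jittered vertically), and diamonds mark the 5 genes. GATAd, with 1 peak and 4.08 kb, is near the median territory of 4.33 kb, and grn has the longest territory of the 5 at 39.1 kb and 4 peaks.

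Windows reaching 100 bp to either side of the 9 summits were searched for letter strings, on both strands and with overlapping matches counted. GATA sites were present in 4 of 9 windows (44.4%, Wilson 95% interval 18.9 to 73.3%), against 36.3% of all 5746 IDR windows. The share depended on the window, at 22.2% with 50 bp and 55.6% with 200 bp to either side of the summit. A wider window has more room for a match, and no share of the whole list at these widths was set beside them. The 4 windows were both srp windows, the GATAd window and the first intronic grn window. In the distal srp window 1 site starts 91 bp before and 1 starts 84 bp after the summit, while in the proximal srp window the site starts 7 bp before it, the closest of the 6 sites. The interval of the distal srp peak ends 9 bp after its summit, so the site at 84 bp lies outside it. The grn window also held 2 sites, 97 and 29 bp before the summit, and the GATAd site starts 67 bp after it. The windows of GATAe, pnr and the other grn peaks held none.

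TAATTA, a string bound by many homeodomains, was in none of the 9 windows (Wilson upper bound 29.9%), against 17.3% of all IDR windows, and GTTCC, a core string of paired-domain sites, was in none, against 19.6%. GTCACG, another paired-domain string, was in 1 of 9, against 4.70% of all windows. It starts 40 bp after the distal srp summit, past the end of that peak's interval. GAGAG, the string bound by the GAGA factor, was in 2 of 9, against 23.2% of all windows, and both were promoter windows. The grn promoter held 2 matches and the pnr promoter 7 in its full window, a number that 43 of the 5746 windows (0.748%) reached. Of these 7, those at 73 and 75 bp after the summit lie past the printed stretch. Promoter windows as a class held GAGAG at 22.3% and other windows at 23.7%. CANNTG, the E-box, was in 2 of 9 windows, the distal srp window and the GATAe window (22.2%, Wilson 95% interval 6.32 to 54.7%), against 58.8% of all windows, and it was the only one of the 6 searches whose interval did not include the share of the whole list.

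Base composition was highest in the promoter windows. The grn promoter had 56.7% G and C and the pnr promoter 52.2%, whereas the other 7 windows ran from 29.9% in the proximal srp window to 43.8% in the GATAd window. The promoters and the GATAd window were above the upper quartile of all IDR windows, 43.3% (median 36.3%). Promoter windows over the whole list did not share this, with a median of 34.8% against 36.8% for the others.

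Genes that act with the GATA factors or in the same tissues were set beside them by the same rule, from lists that overlap in part. The share to read them against is the 23.9% of all genes with an IDR peak, which is not matched for territory length. Of 6 cofactors and regulators, 4 had an IDR peak: hth, a homeobox gene, with 25, ush, the zinc finger partner of pannier, with 12, Bx with 8 and zfh1 with 5, while Chi and Su(H) had none. For ush, 9 of the 12 had its own TSS closest, the highest of these at a signal of 749.6. Of 12 genes of the blood cells, in which serpent acts, 3 had an IDR peak, crq (519.9), gcm (224.1) and lz (176.4), with 1 each, a share close to that of all genes. Of 12 genes of the dorsal ectoderm, amnioserosa and heart, where pannier acts, 9 had one, led by tup with 9, H15 with 8, mid with 6 and Doc2 with 3. Of 8 endoderm genes, 6 had one, led by fkh with 7, dve with 3, lab with 3 and cad with 2. Of 6 genes that pannier acts on in the notum, 4 had one, wg with 5, emc with 3, caup with 2 and ara with 2, while ac and sc had none. The territories of hth, H15, ush and tup were 134, 57.9, 51.2 and 42.4 kb, against a median of 4.33 kb over all genes. Among the genes without an IDR peak, Chi had a territory of 1.36 kb, below that median. The territories of Su(H), ac and sc, also without an IDR peak, were longer than the median. The part of territory length in these counts was not tested.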

How the data were processed

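The 5 deposited peak lists of 3 biological replicates were analysed. Per the deposited notes, each replicate list was derived from that replicate's alignment and a control file, the pooled list from the 3 alignments and a control file, and the IDR list from these 4 lists, all on assembly dm6. For the aligner, the caller and the value of the IDR cutoff the entry is "not given in the sources used here". Ranks come from the deposited signal values. A −log10 q value per peak, also deposited, supports no result, and summits come from the deposited offset. Read counts were not part of the files, which leaves the depth unknown, and intervals cover counting error only.

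Genes came from Ensembl release 115 and sequence from RefSeq, both of genome release 6. Peaks on 6 chromosome arms were used, and none extends past the end of an arm. Summits were assigned as stated in the report, classed as lying within 500 bp of a TSS or, failing that, in an exon, in an intron or between genes, and matched between lists within 100 bp. Windows of 100 bp to either side of a summit were searched for the strings named. No rows were identical between replicates. Assignment was tested against a direct search over all genes at random positions of the Ensembl annotation. String search was tested on simulated sequences with planted GATA sites only, not with the other strings. Python 3.11.15, numpy 2.4.6, pandas 2.3.3, scipy 1.17.1 and matplotlib 3.10.9 were used.

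The members and all lists were chosen with earlier results of these data known. Named were all 5 genes with every IDR peak, at most 4 genes with an IDR peak per partner list by number of peaks and then signal, and for each member the 2 genes with the closest peak counts. Since there is 1 group, the only test was an exact sign-flip permutation test of rank order between genes. Alternatives were another assignment rule, all annotated genes, other match distances, promoter distances and windows, the stronger IDR peaks, and leaving out each replicate.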

Additional observations from a re-analysis of the deposited data

How the results depend on the processing

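With only the stronger IDR peaks, those above the median signal, the 5 genes held 3 IDR peaks in 3 genes (srp, grn and GATAd) and 0% lay within 500 bp of a TSS. When summits had to match within 50 bp, or only the highest 5746 peaks of each replicate counted, 66.7% of the 9 IDR peaks were found in all 3 replicates. GATAe lost its IDR peak, leaving 4 of 5 genes, when the TSSs of all annotated genes competed and when only the gene body or 2 kb around a TSS counted, and the second of these left srp with 1. Leaving out each replicate gave a mean of 9.5 to 10 peaks among the highest 5746. The share of IDR peaks found in both of the others stayed at 100%. This was fixed in advance, since each of the 9 had a summit in all 3 replicates. Counting only the gene body or 2 kb around a TSS also lowered the mean number of peaks among the highest 5746 from 9.67 to 6.67. The share of summit windows with a GATA site, 44.4% as reported, ranged from 22.2% with 50 bp to 55.6% with 200 bp to either side. It was 66.7% in the stronger IDR peaks, which are only 3 windows. At the summits of replicates 1, 2 and 3 it was 44.4%, 44.4% and 33.3%. No paired analysis was possible because there is 1 group. The unknown depth and the 9 peaks limit every share.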

Other observations

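Compared with other families by the same rule, the GATA factor genes had a median of 1 IDR peak per gene and at most 4, in 5 of 5 genes. Of the 8 T-box genes 6 had an IDR peak, with a median of 2.5, led by H15 with 8 and mid with 6. Of 14 forkhead genes 12 had one, with a median of 2, led by CHES-1-like with 13 and fkh with 7. Over all protein-coding genes 23.9% had an IDR peak, a share not matched to these families for territory length. These counts were not tested against each other, and the part of territory length in them was not tested.

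The protein-coding genes with the most similar peak counts, by the Euclidean distance of log2(number of peaks + 1) over the 5 lists, were CG34206 and CG1239 for srp (both 0.138), Xrp1 (0) and Pos (0.186) for GATAe, PVRAP (0.159) and CG3473 (0.177) for grn, and Msr-110 (0.313) and mamo (0.393) for pnr. For GATAd 7 genes had identical counts in all 5 lists, and Chro and CG6602 have the closest territory lengths. The lists share reads and the IDR peaks are part of the pooled list, so the 5 counts are not independent.

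In the replicate lists, 25, 9 and 21 peaks of the 5 genes had no pooled summit within 100 bp. None was among the highest 5746 of its list, and the best ranked 6505 in replicate 1, 13831 in replicate 2 and 6858 in replicate 3.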
